A study of Mus musculus with 4 samples.

Results

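The genes described here are those that encode the transforming growth factor beta (TGF-β) ligands, their receptors and the proteins that hold the ligands latent in the matrix. They were taken by symbol from the deposited gene tables of whole mouse heart, and all 10 were found among the 23337 genes listed: the 3 ligands *Tgfb1*, *Tgfb2* and *Tgfb3*, the 3 receptors *Tgfbr1*, *Tgfbr2* and *Tgfbr3*, and the 4 latent TGF-β binding proteins *Ltbp1*, *Ltbp2*, *Ltbp3* and *Ltbp4*. The hearts came from csPIMT-/- mice, in which exons 3 to 4 of PIMT (symbol *Tgs1*, a nuclear receptor coactivator-binding protein with RNA cap methyltransferase activity) lie between loxP sites and are cut out by Cre. Cre was driven by the promoter of the α-myosin heavy chain gene *Myh6*, which is active in cardiomyocytes, so the other cells of the heart keep the gene. The controls were PIMT fl/fl mice, which carry the same floxed alleles without the deletion, and a group with Cre and no floxed allele was not analysed here. All mice were C57BL6/J. At 2 months and at 6 months of age, RNA of 5 hearts per genotype, from males and females together, was pooled into 1 library, which gave 4 libraries in all. No group had a replicate library, so the intervals given below are 95% Clopper-Pearson intervals of the ratio of 2 read counts and cover counting error only.

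TGF-β ligands are made as precursors that are cut by furin and secreted with their own propeptide wrapped around them, so that the ligand cannot reach its receptor. Latent TGF-β binding proteins (LTBPs) are linked to the propeptide by disulfide bonds and anchor the latent complex to fibrillin and fibronectin in the matrix, from which integrins, proteases and thrombospondin release it. Free ligand binds the type II receptor, which recruits and phosphorylates the type I receptor, which in turn phosphorylates Smad2 and Smad3. In the injured heart this pathway is known for turning resident fibroblasts into matrix-producing myofibroblasts. The libraries are of whole tissue, so a change in the number of cells of a type and a change in RNA per cell cannot be told apart.

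The 4 libraries held between 29823073 and 40705783 reads in genes. The deposited values are read counts divided by a size factor per library, and the text calls them normalized counts. *Tgs1* itself had normalized counts of 580 (control) and 160 (csPIMT-/-) at 2 months and of 816 and 162 at 6 months, which gave ratios of 0.276 [0.227 to 0.334] and 0.199 [0.167 to 0.236]. The reads were not split by exon, so they do not separate the deleted exons from the rest of the transcript. *Myh6*, whose promoter drove Cre, was at 0.993 and 0.769 times its control level at 2 and 6 months. The pools also differed in markers of the atrium and of sex. *Myl7*, which marks the atrium, was at 1045 in the 2-month control and at 42908, 17299 and 8084 in the 2-month csPIMT-/-, 6-month control and 6-month csPIMT-/- libraries, and *Xist*, expressed from the inactive X of females, was at 805 in the 2-month control and between 6369 and 25639 in the others. The log2 ratio of a gene between genotypes also went with the GC content of its transcript. Over all genes the Spearman correlation between them was 0.581 for the younger and 0.607 for the older hearts, so each ratio is also given less its trend on GC content, as a GC-adjusted ratio.

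Of the 10 genes, *Tgfb2* at 6 months, *Ltbp2* at both ages and *Ltbp1* at 6 months stood farthest from genes of like GC content. *Tgfb2* was at its control level in csPIMT-/- hearts at 2 months and 5.38-fold above it at 6 months. *Ltbp2* was 8.20-fold higher at 2 months and 14.1-fold higher at 6 months. *Ltbp1* was level at 2 months and at 0.579 of control at 6 months, so the LTBP genes did not move as one. A gene was called higher or lower where its ratio passed 2-fold. Calls were made over genes for which either library of the pair held 10 or more reads, and all 10 members passed that filter in every comparison. At 2 months 3 of the 10 were called higher (*Ltbp2*, *Ltbp3*, *Ltbp4*) and 1 lower (*Tgfbr1*), where 17.3% of all 15152 genes compared were higher and 22.5% lower. At 6 months 6 of the 10 were called higher (*Tgfb1*, *Tgfb2*, *Tgfb3*, *Ltbp2*, *Ltbp3*, *Ltbp4*) and 0 lower, where 16.9% of 15218 genes were higher and 24.9% lower. The median ratio of the 10 was 1.46 at 2 months and 2.48 at 6 months, beside 0.997 and 1.002 over all genes compared. On GC-adjusted ratios, 1 of the 10 was higher (*Ltbp2*) and 0 lower at 2 months, against 15% and 11.4% of genes, and the median was 1.33. At 6 months the GC-adjusted calls were 3 higher (*Tgfb2*, *Tgfbr1*, *Ltbp2*) and 1 lower (*Ltbp1*), against 14.2% and 13.1% of genes, with a median of 1.84.

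**Figure D1:**
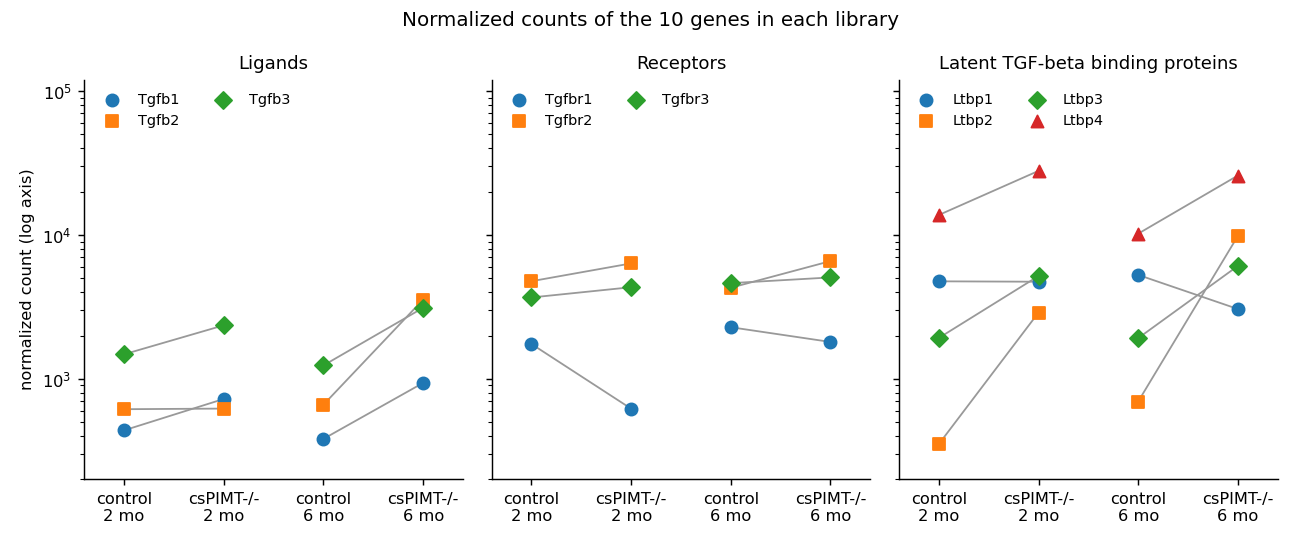
Normalized counts (vertical axis, log scale) of the 10 genes in the 4 libraries, 1 point per library, with ligands, receptors and latency proteins in separate panels and grey lines joining control and csPIMT-/- of the same age. *Tgfb2* lies between 615 and 661 in 3 libraries and at 3557 in the 6-month csPIMT-/- library, and *Ltbp2* runs from 352 to 9838.

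*Tgfb2*, on chromosome 1 (GRCm38, chr1:186622792-186705989, minus strand), encodes the ligand known for its part in heart cushion and valve formation, which needs a co-receptor to bind the type II receptor well. Its normalized count was 615 in the 2-month control, 621 in the 2-month csPIMT-/-, 661 in the 6-month control and 3557 in the 6-month csPIMT-/- library. The 6-month csPIMT-/- library alone stood high, and the other 3 lay between 615 and 661. The ratio between genotypes was 1.01 [0.899 to 1.13] at 2 months and 5.38 [4.97 to 5.83] at 6 months, when 97.0% of all genes compared had a lower ratio. GC adjustment moved these ratios to 1.35 and 7.34, and 98.2% of genes then had a lower ratio at 6 months. With age the csPIMT-/- level was 5.72-fold higher [5.21 to 6.30], while the control level was 1.07-fold higher.

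*Tgfb1* (chr7:25687002-25705077, plus strand) encodes the ligand most often tied to fibrosis, also released by platelets and macrophages. It was at 439 in the 2-month control, 725 in the 2-month csPIMT-/-, 383 in the 6-month control and 937 in the 6-month csPIMT-/- library. Both csPIMT-/- libraries stood above both controls. The ratio was 1.65 [1.46 to 1.86] at 2 months and 2.45 [2.18 to 2.75] at 6 months, and 1.32 and 1.84 after GC adjustment. *Tgfb3* (chr12:86056745-86079041, minus strand) encodes the third ligand, which shares the integrin-binding motif of the *Tgfb1* propeptide. Its counts were 1482, 2356, 1240 and 3118 in the same order of libraries, and both csPIMT-/- libraries again stood above both controls. The share of all genes with that order is not given, so for both ligands it is a description only. The ratios of 1.59 [1.49 to 1.70] and 2.51 [2.36 to 2.68] were close to those of *Tgfb1*, as were the GC-adjusted 1.22 and 1.83.

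The promoters of *Tgfb1* and *Tgfb2* are shown because the levels of these ligands differed so much in pattern. Each sequence is the RefSeq promoter on GRCm38.p6, from 250 bases before to 50 bases after the transcription start, read 5′ to 3′ on the strand of the gene, and capitals mark matches to 7 motifs on either strand: the GC box GGGCGG, the TATA box TATAAA, the cAMP response element TGACGTCA with its half-site TGACG (which every full element contains), the AP-1 site TGACTCA, the Smad box CAGACA and the MCAT element CATTCC. A promoter was present for 8 of the 10 genes, 12 promoters in all, and none for *Tgfb3* and *Tgfbr3*. The *Tgfb1* promoter lies at chr7:25686752-25687051 (plus strand) and the *Tgfb2* promoter at chr1:186705940-186706239 (minus strand).
Tgfb1 promoter: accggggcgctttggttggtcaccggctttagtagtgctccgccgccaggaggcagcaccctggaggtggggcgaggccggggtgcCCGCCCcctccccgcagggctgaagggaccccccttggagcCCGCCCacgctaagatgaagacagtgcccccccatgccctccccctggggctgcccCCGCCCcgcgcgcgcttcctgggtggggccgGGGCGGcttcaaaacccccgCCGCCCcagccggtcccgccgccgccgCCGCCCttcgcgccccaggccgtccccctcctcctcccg
Tgfb2 promoter: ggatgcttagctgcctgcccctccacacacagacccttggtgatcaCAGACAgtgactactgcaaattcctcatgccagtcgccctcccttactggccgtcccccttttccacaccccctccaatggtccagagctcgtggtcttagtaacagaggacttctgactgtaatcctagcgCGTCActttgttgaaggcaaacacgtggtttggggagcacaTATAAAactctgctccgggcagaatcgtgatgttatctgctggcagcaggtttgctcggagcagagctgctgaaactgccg
The *Tgfb1* promoter had a GC content of 77.0% with 30 CpG dinucleotides, 6 GC boxes and no TATAAA. The *Tgfb2* promoter had a GC content of 54.3% with 10 CpG dinucleotides and no GC box. It held TATAAA at position -31, the half-site TGACG, as its reverse complement CGTCA, at -72 and a Smad box at -204, all counted from the start site. TATAAA occurred in 1 of the 12 member promoters and in 13.6% of all 32851 promoters, the GC box in 6 of 12 and 35.7%, the half-site in 2 of 12 and 20.8%, the Smad box in 4 of 12 and 21%, and MCAT in 0 of 12 and 14.7%. The *Ltbp4* promoters at chr7:27333599-27333898 and chr7:27333614-27333913 overlap over most of their length, so nearly the same GC boxes count in both. All of these are matches of letters only.

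At 6 months the unadjusted ratios of the receptors lay nearer to 1 than those of the ligands, but the GC-adjusted ratio of *Tgfbr1*, 2.10, lay farther from 1 than those of *Tgfb1* and *Tgfb3*. *Tgfbr1* (chr4:47353222-47414931, plus strand) encodes the type I receptor, the kinase that phosphorylates Smad2 and Smad3. It was at 1747 in the 2-month control, 620 in the 2-month csPIMT-/-, 2285 in the 6-month control and 1805 in the 6-month csPIMT-/- library. The 2-month csPIMT-/- library alone stood low. The ratio was 0.355 [0.321 to 0.392] at 2 months and 0.790 [0.743 to 0.840] at 6 months. Its transcript had the lowest GC content of the 10, 41.0%, and the GC-adjusted ratios were 0.837 and 2.10, so the direction at 6 months turned with that adjustment.

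*Tgfbr2* (chr9:116084293-116175360, minus strand) encodes the type II receptor, which binds the ligand first. Its counts were 4772 in the 2-month control, 6346 in the 2-month csPIMT-/-, 4297 in the 6-month control and 6585 in the 6-month csPIMT-/- library. Both csPIMT-/- libraries were higher, by 1.33-fold [1.28 to 1.38] and 1.53-fold [1.48 to 1.59], which GC adjustment left at 1.37 and 1.52. *Tgfbr3* (chr5:107106570-107289629, minus strand) encodes betaglycan, the co-receptor that presents TGF-β2. It was at 3679, 4335, 4627 and 5070 in the same order, and the genotypes overlapped, since the 6-month control stood above the 2-month csPIMT-/- library. The ratio was 1.18 [1.13 to 1.23] at 2 months and 1.10 [1.05 to 1.14] at 6 months, under the 2-fold limit at both ages. After GC adjustment it was 1.34 and 1.22.

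*Ltbp2* (chr12:84783212-84876532, minus strand) encodes the LTBP that binds fibrillin but, unlike its relatives, does not bind latent TGF-β. It was at 352 in the 2-month control, 2889 in the 2-month csPIMT-/-, 696 in the 6-month control and 9838 in the 6-month csPIMT-/- library. Each csPIMT-/- library stood well above both controls, which is a description only, since the share of all genes with that order is not given. The ratio was 8.20 [7.38 to 9.14] at 2 months and 14.1 [13.2 to 15.2] at 6 months, above 97.8% and 99.1% of all genes compared. GC adjustment left 5.00 and 8.47, above 96.2% and 98.5% of genes. With age the level was 1.98-fold higher in control [1.75 to 2.23] and 3.41-fold higher in csPIMT-/- hearts.

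*Ltbp1* (chr17:75005568-75392512, plus strand) encodes an LTBP that binds the latent complex of every TGF-β isoform. Its counts were 4763 in the 2-month control, 4733 in the 2-month csPIMT-/-, 5279 in the 6-month control and 3059 in the 6-month csPIMT-/- library. The 6-month csPIMT-/- library alone stood low. The ratio was 0.994 [0.953 to 1.04] at 2 months and 0.579 [0.554 to 0.606] at 6 months. After GC adjustment it was 0.782 and 0.431, below which lay 32.4% and 9.18% of genes.

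*Ltbp3* (chr19:5740904-5758532, plus strand) encodes another binder of latent TGF-β, known for its role in bone and tooth. It was at 1924, 5184, 1918 and 6093 in the 2-month control, 2-month csPIMT-/-, 6-month control and 6-month csPIMT-/- libraries. The controls were level with each other, and the csPIMT-/- libraries were 2.69-fold [2.56 to 2.84] and 3.18-fold [3.02 to 3.34] higher. *Ltbp4* (chr7:27305136-27337692, minus strand) encodes the LTBP that also organises elastic fibres. Its counts of 13772, 27901, 10213 and 25892 were the highest of the 10 genes in every library. The ratios were 2.03 [1.99 to 2.07] and 2.54 [2.48 to 2.59]. At 2 months this call lay at the limit, and the ratio was 1.99 with size factors from the 2 libraries alone and 1.90 with scaling to total reads. The transcripts of *Ltbp3* and *Ltbp4* had a GC content of 58.3% and 62.2%, and GC adjustment took their ratios below 2-fold, to 1.65 and 1.91 for *Ltbp3* and to 1.19 and 1.44 for *Ltbp4*.

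The promoters of *Ltbp1* and *Ltbp2* are shown for the opposite course of these genes at 6 months. They lie at chr17:75005279-75005578 (plus strand, the first of the pair of *Ltbp1* promoters) and chr12:84876442-84876741 (minus strand), with capitals as above.
Ltbp1 promoter: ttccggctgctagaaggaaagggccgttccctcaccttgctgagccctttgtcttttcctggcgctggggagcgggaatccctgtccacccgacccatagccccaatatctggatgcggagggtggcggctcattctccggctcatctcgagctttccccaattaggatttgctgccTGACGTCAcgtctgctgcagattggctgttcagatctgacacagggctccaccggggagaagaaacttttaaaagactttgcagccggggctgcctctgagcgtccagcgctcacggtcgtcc
Ltbp2 promoter: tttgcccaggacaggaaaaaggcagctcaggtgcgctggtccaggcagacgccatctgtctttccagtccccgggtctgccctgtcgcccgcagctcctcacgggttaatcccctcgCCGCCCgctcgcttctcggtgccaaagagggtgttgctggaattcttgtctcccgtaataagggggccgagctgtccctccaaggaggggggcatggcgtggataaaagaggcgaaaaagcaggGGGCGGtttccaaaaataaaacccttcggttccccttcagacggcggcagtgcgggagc
The *Ltbp1* promoter had a GC content of 58.7% and held the full element TGACGTCA at position -73, which occurred in 1 of the 12 member promoters and in 1.79% of all promoters. The *Ltbp2* promoter had a GC content of 61.0% and 2 GC boxes. The AP-1 site occurred in 1 of the 12, that of *Ltbp3*, and in 5.2% of all promoters.

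**Figure D2:**
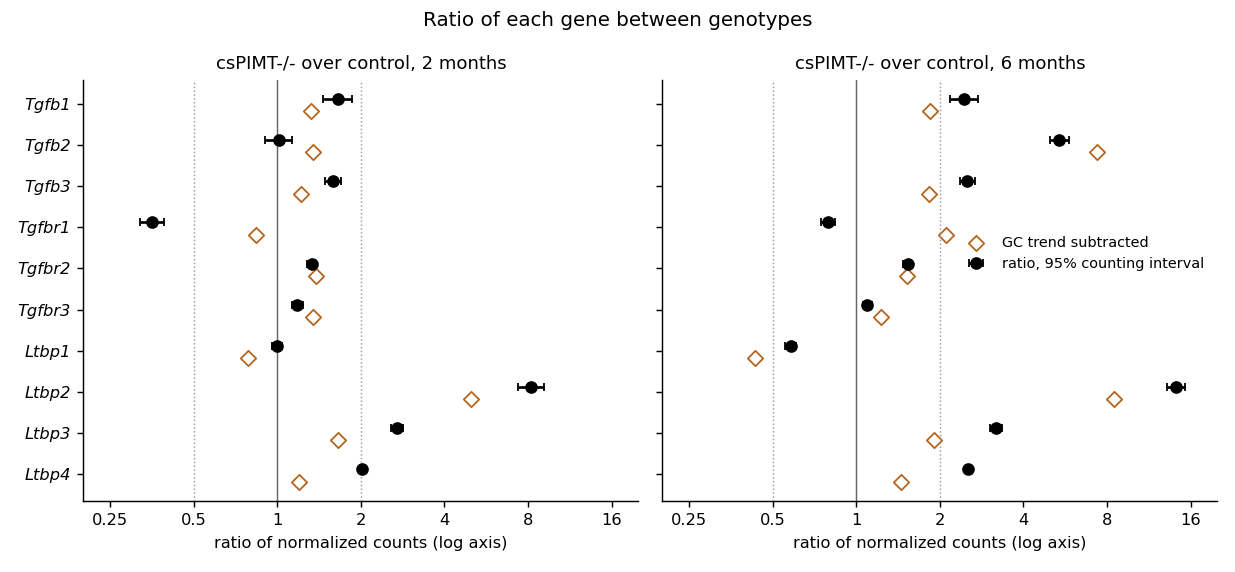
Ratio of normalized counts between csPIMT-/- and control libraries for each of the 10 genes (log scale) at 2 and 6 months, as points with 95% counting intervals, with GC-adjusted ratios as open diamonds and dotted lines at 2-fold. *Ltbp2* lies farthest above 1 at both ages, *Tgfb2* leaves 1 at 6 months, and *Ltbp1* lies below 1 at 6 months.

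Between 2 and 6 months *Tgfb2*, *Ltbp2*, *Tgfbr1* and *Ltbp1* differed more in csPIMT-/- than in control hearts, as did *Tgfb1*, *Tgfb3* and *Ltbp3*. *Ltbp4*, *Tgfbr2* and *Tgfbr3* differed more in control hearts. In control hearts none of the 10 passed 2-fold in either direction, where 9.01% of 15132 genes were higher and 4.65% lower at 6 months, and the median ratio was 1.04, with *Ltbp2* nearest the limit at 1.98 and past it, at 2.07, after GC adjustment. In csPIMT-/- hearts 3 of the 10 were higher at 6 months (*Tgfb2*, *Ltbp2* and *Tgfbr1*, the last by 2.91-fold) and 0 were lower, where 9.71% of 15057 genes were higher and 8.2% lower, and the median was 1.23. *Ltbp1* was at 0.646 of its 2-month level in csPIMT-/- and at 1.11 in control hearts. In the same order *Tgfb1* was at 1.29 and 0.872, *Tgfb3* at 1.32 and 0.837, and *Ltbp3* at 1.18 and 0.997. *Ltbp4* was at 0.928 and 0.742, *Tgfbr2* at 1.04 and 0.9005, and *Tgfbr3* at 1.17 and 1.26. The ratios between genotypes and those between ages share libraries, so the high 6-month level of *Tgfb2* enters both.

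The 2-month control was the library with the fewest atrial transcripts, so each csPIMT-/- library was also set against the control of the other age. Against the 6-month control, the 2-month csPIMT-/- library had ratios of 0.940 for *Tgfb2*, 4.15 for *Ltbp2*, 2.70 for *Ltbp3*, 2.73 for *Ltbp4* and 0.271 for *Tgfbr1*. Against the 2-month control, the 6-month csPIMT-/- library had ratios of 5.78 for *Tgfb2*, 27.9 for *Ltbp2*, 3.17 for *Ltbp3*, 1.88 for *Ltbp4* and 0.642 for *Ltbp1*. With the other control *Tgfbr1* moved from 0.790 to 1.03 at 6 months and *Ltbp4* from 2.54 to under 2-fold, while *Tgfb2* and *Ltbp2* stayed past 2-fold at 6 months.

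A fit of genotype and age over all 4 libraries (limma on log2 of normalized count plus 1, 14847 genes, Benjamini-Hochberg adjustment over all of them) took as its only error how the genotype difference differed between the ages, 1 residual degree of freedom, and borrowed spread from other genes. *Ltbp2* rose by 3.43 log2 units (SE 0.275, adjusted p = 0.016), *Ltbp3* by 1.55 (SE 0.205, adjusted p = 0.016), *Ltbp4* by 1.18 (SE 0.220, adjusted p = 0.024) and *Tgfb3* by 0.999 (SE 0.255, adjusted p = 0.044). These 4 of the 10 passed at an adjusted p of 0.05 and none of the 10 fell, where 11% of all genes rose and 17.5% fell. *Tgfb1* had a log2 difference of 1.01 (SE 0.287, limma adjusted p = 0.056), *Tgfb2* of 1.22 (SE 0.586, 0.17), *Tgfbr1* of -0.92 (SE 0.336, 0.097) and *Ltbp1* of -0.40 (SE 0.262, 0.29). *Tgfb2* had the widest error of the 10, since its ratio differed most between ages. With the GC trend subtracted in each library, or without the mean trend of the spread, no gene passed in this fit. None of the 10 did so either. In these limma fits 4 and 5 of the 10 had an unadjusted p under 0.05, beside 25.9% and 40.2% of all genes.

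Per kilobase of the longest transcript, which allows levels of different genes to be compared, the ligands together stood at 729 in the 2-month control, 1100 in the 2-month csPIMT-/-, 645 in the 6-month control and 1981 in the 6-month csPIMT-/- library. *Tgfb3* was the most abundant ligand in all 4 libraries. *Tgfb2* made up 16.5%, 11.05% and 20.1% of the ligand total in the 2-month control, 2-month csPIMT-/- and 6-month control, and 35.1% in the 6-month csPIMT-/- library. *Tgfb2* per kilobase thus went from 0.869 times *Tgfb1* in the 6-month control to 1.91 times *Tgfb1* in the 6-month csPIMT-/- library. The receptors together held between 1498 and 1960 per kilobase. Within them *Tgfbr1* held a share of 6.72% in the 2-month csPIMT-/- library, against 20.3%, 23.5% and 16% in the 2-month control, 6-month control and 6-month csPIMT-/- libraries. The 6-month difference in share rests on a ratio of 0.790 that turned to 2.10 with GC adjustment and to 1.03 against the other control.

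The LTBP genes together stood at 3659 and 3125 per kilobase in the 2- and 6-month controls and at 7221 and 7783 in the csPIMT-/- libraries. *Ltbp4* held between 60.7% and 71.7% of that total everywhere. The higher totals in csPIMT-/- thus rest mostly on *Ltbp4*, whose ratios of 2.03 and 2.54 became 1.19 and 1.44 after GC adjustment. *Ltbp1* came second in the 6-month control, with 25.3% against 3.29% for *Ltbp2*, and *Ltbp2* came second in the 6-month csPIMT-/- library, with 18.7% against 5.89% for *Ltbp1*. The level of *Ltbp2* per kilobase was 0.130 times that of *Ltbp1* in the former and 3.17 times in the latter.

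**Figure D3:**
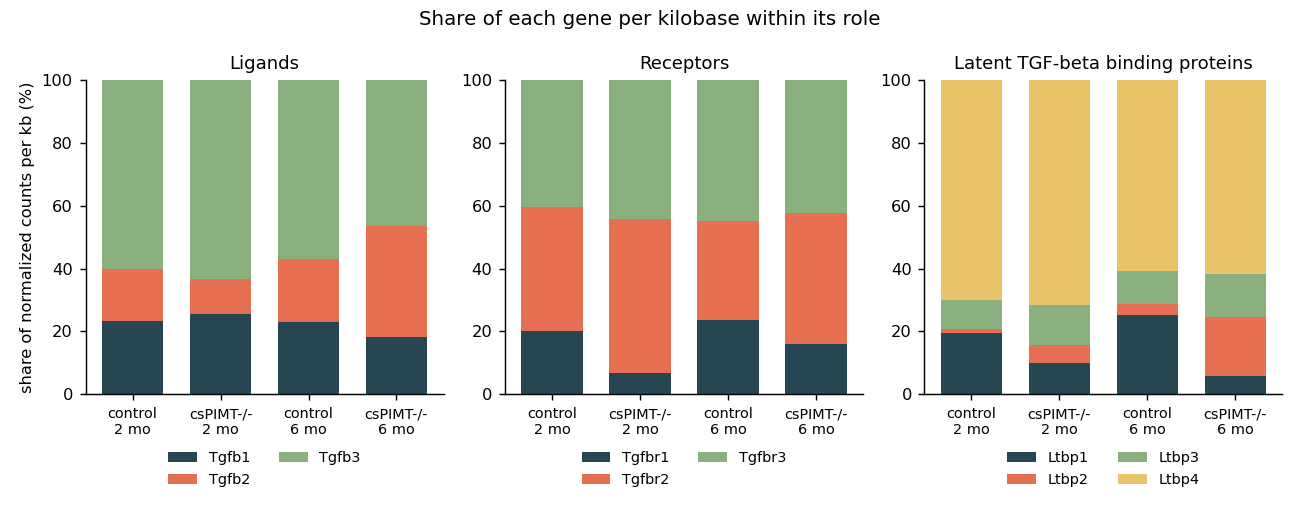
Share (%) of each gene in the normalized counts per kilobase of its role, as stacked bars for the 4 libraries, with ligands, receptors and LTBP genes in separate panels. In the 6-month csPIMT-/- library *Tgfb2* holds 35.1% of the ligand total and *Ltbp2* 18.7% of the LTBP total.

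Across the 10 genes the ratio went with the GC content of the transcript, as over all genes, with a Spearman correlation of 0.818 at 2 months and 0.479 at 6 months. These are descriptions over 10 points that share the same libraries. *Tgfb1* and *Tgfb3*, at 52.5% and 53.0%, had GC-adjusted ratios above those of 67.8% and 63.1% of genes at 2 months and of 83.4% and 83.2% at 6 months. *Tgfb2*, at 46.9%, was above 69.0% of genes at 2 months and above 98.2% at 6 months. What part GC content had in these ratios was not tested.

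**Figure D4:**
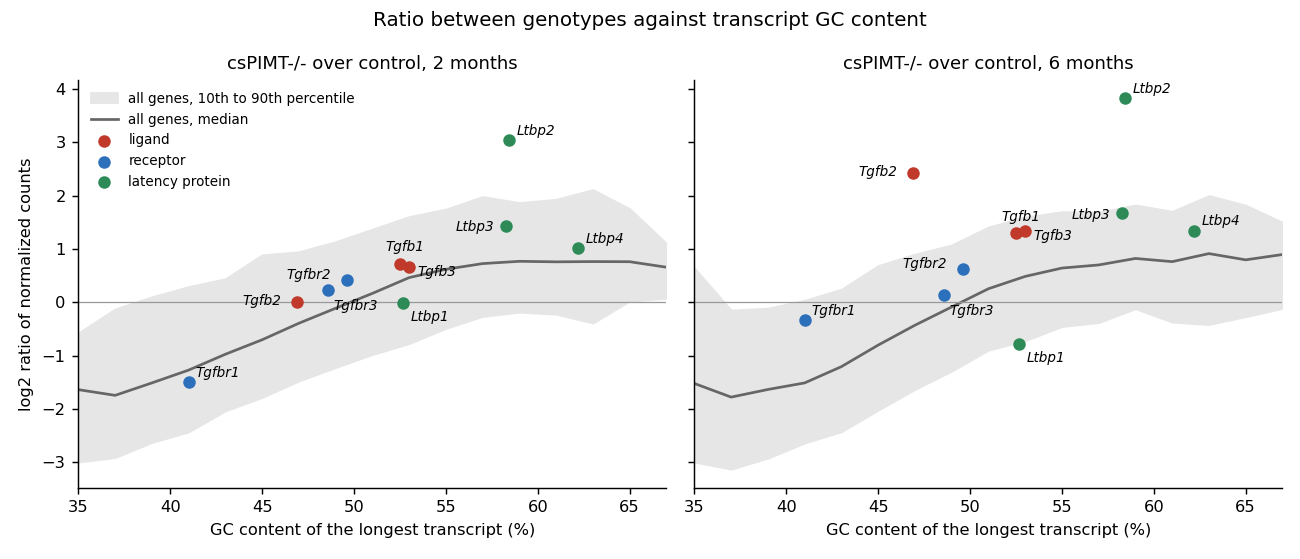
Log2 ratio of normalized counts between csPIMT-/- and control (vertical axis) against the GC content of the longest transcript (%, horizontal axis) at 2 and 6 months, with the median of all genes as a line and their 10th to 90th percentiles as a grey band. *Ltbp2* lies above the band at both ages and *Tgfb2* above it at 6 months.

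Markers of the cell types of the heart were read beside the 10 genes. Over all genes compared, 17.3% were higher and 22.5% lower at 2 months, and 16.9% and 24.9% at 6 months. Of 8 fibroblast markers, 2 were called higher and 1 lower at 2 months (median ratio 0.965), and 4 higher and 0 lower at 6 months (median 1.92). Their summed level was 125410 and 130170 in the 2- and 6-month controls and 282330 and 236730 in the csPIMT-/- libraries, to which *Gsn* alone gave 33885, 69051, 203108 and 148060. Among the other fibroblast markers *Pdgfra* had ratios of 1.01 and 2.29. *Lum*, at 0.489 and 0.577, and *Dpt*, at 0.856 and 0.537, stood below 1 at both ages. Macrophage and leukocyte markers summed to 11309 and 27683 in the controls and 36224 and 49390 in the csPIMT-/- libraries. Of these 8 markers 6 were called higher and 0 lower at 2 months (median ratio 2.95). At 6 months 3 were higher and 1 lower (median 1.68). After GC adjustment 5 of 7 were higher at 2 months and 0 of 7 at 6 months. *Ptprc* stood below 1 at both ages, at 0.533 and 0.443, and *Emr1* at 6 months, at 0.742. Platelet markers summed to 1183 and 1535 in the controls and 1657 and 2018 in the csPIMT-/- libraries. *Pf4* alone gave 655, 1071, 1304 and 1204 of these sums. Of the 5 platelet markers 0 were called higher and 1 lower at 2 months (median ratio 0.762). At 6 months 2 were higher and 0 lower (median 1.71). Cardiomyocyte markers summed to 3575500 and 4091900 in the controls and 2728900 and 1968200 in the csPIMT-/- libraries. *Ttn* alone gave 1868820, 2448080, 1069320 and 713324 of the cardiomyocyte sums. Of these 10 markers 3 were called lower and 0 higher at 6 months, with a median ratio of 0.769. *Actc1*, *Myl3* and *Tnni3* then stood above 1, at 1.37, 1.43 and 1.18, and the others below 1. Endothelial markers summed to 76371 and 58168 in controls and 61954 and 68255 in csPIMT-/-, and smooth muscle and pericyte markers to 80089, 64850, 87083 and 53379. The valve and cartilage list summed to 871 and 1426 in controls and 4632 and 10052 in csPIMT-/-, the same order of libraries as for *Ltbp2*, and *Comp*, a cartilage matrix protein that is also on the list of induced transcripts below, alone gave 421, 1045, 4096 and 9822 of it. Of these 6 markers 3 were higher and 0 lower at 2 months and 3 higher and 2 lower at 6 months, when *Acan*, the cartilage proteoglycan, had a ratio of 0.298. Mesothelial markers stood at 748, 544, 2441 and 669. The part of these cell types in the ratios was not tested.

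Of 6 atrial markers, 5 were called higher and 0 lower at 2 months, and of the 5 compared at 6 months 1 was higher (*Nppa*) and 3 lower. *Bmp10*, an atrial ligand, was at 5.19 in the 2-month control and at 8564, 6296 and 1079 in the 2-month csPIMT-/-, 6-month control and 6-month csPIMT-/- libraries. The summed atrial list was 40750 and 121260 in controls and 334140 and 349430 in csPIMT-/-, mostly *Nppa*, which ventricles also express in heart failure. In the 2-month csPIMT-/- library lung markers summed to 1227, against 1.73 to 19.8 in the others, and brown fat markers to 6253, against 1573 to 2917. Most of the latter sums was *Cidea*, at 1015 to 2600 in every library, whereas *Ucp1*, the uncoupling protein of brown fat, was at 1766 in the 2-month csPIMT-/- library and at 8.65 to 93.2 in the others. In the 2-month control 6 of the 7 lung markers were at 0. The part of other tissue in the ratios was not tested.

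The rest of the pathway was read from 6 lists of genes. Rose and fell are said below of genes that passed the limma fit, whose adjusted p lay between 0.016 (*Itgb1*, *Cav1*) and 0.038 (*Acvrl1*) for the genes named. Since no gene passed that fit once the GC trend was subtracted, GC-adjusted counts and medians of each list follow its unadjusted ones. Each list count stands beside the shares over all genes compared. These were 17.3% higher and 22.5% lower at 2 months, and 16.9% and 24.9% at 6 months. After GC adjustment they were 15% and 11.4% at 2 months, and 14.2% and 13.1% at 6 months. Among 26 genes of ligand processing, latency and activation, 5 were called higher and 6 lower at 2 months (median ratio 1.05; 5 higher and 6 lower of 25 after GC adjustment, median 0.946), and 13 higher and 3 lower at 6 months (median 1.92; 8 higher and 2 lower of 25 after GC adjustment, median 1.63). *Itgb5*, the beta subunit of an αv integrin that binds the latent complex, rose, with ratios of 2.42 and 3.70 and a log2 difference of 1.58 in the limma fit. *Tgm2*, the transglutaminase that crosslinks LTBPs to the matrix, rose with ratios of 2.46 and 5.06. *Itgb6*, the beta subunit of an epithelial integrin that activates latent TGF-β1 and TGF-β3, fell with ratios of 0.365 and 0.106, from 2719 to 991 at 2 months and from 2296 to 243 at 6 months. *Itgb1* also fell, with ratios of 0.276 and 0.308.

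Among 16 co-receptors and receptor regulators, 1 was higher and 5 lower at 2 months (median 0.738), and 4 higher and 6 lower at 6 months (median 0.827). After GC adjustment 1 was higher and 2 lower at each age, with medians of 0.916 and 1.15, so the median at 6 months crossed 1. *Bambi*, a decoy receptor that lacks a kinase, rose with ratios of 2.70 and 2.57 (4.79 and 5.15 after GC adjustment). *Eng*, the endothelial co-receptor endoglin, rose with ratios of 1.63 and 2.44 (1.01 and 1.496 after GC adjustment). *Acvrl1*, its type I partner, rose with ratios of 1.64 and 2.78 (1.04 and 1.745 after GC adjustment). The GC-adjusted ratios of *Eng* and *Acvrl1* thus lay near 1 at 2 months. *Cav1*, which takes receptors into caveolae, fell with ratios of 0.298 and 0.207 (0.603 and 0.482 after GC adjustment). *Usp15*, a deubiquitinase of the type I receptor, fell with ratios of 0.340 and 0.173 (0.707 and 0.413 after GC adjustment). Among 19 Smad proteins and partners, 1 was higher and 7 lower at 2 months (median 0.603), and 2 higher and 5 lower at 6 months (median 0.951). GC adjustment left 1 higher and 3 lower at 2 months (median 0.702), and 1 higher and 1 lower at 6 months (median 0.860). The inhibitory *Smad6* rose with ratios of 1.82 and 2.90 (1.09 and 1.67 after GC adjustment). *Smad7*, the other inhibitory Smad, had ratios of 1.003 and 2.005 (0.632 and 1.24 after GC adjustment). It did not pass the limma test (adjusted p = 0.27).

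Among 30 transcripts that TGF-β is known to induce, 11 were higher and 7 lower at 2 months (median 0.972; 10 higher and 8 lower of 29 after GC adjustment, median 0.783), and 17 higher and 0 lower at 6 months (median 2.05; 9 higher and 0 lower of 29 after GC adjustment, median 1.40). *Ctgf*, the connective tissue growth factor, was at 8225 in the 2-month control, 20501 in the 2-month csPIMT-/-, 7004 in the 6-month control and 55493 in the 6-month csPIMT-/- library, and it rose with ratios of 2.49 and 7.92. *Acta2*, the actin of smooth muscle and myofibroblasts, had ratios of 0.922 and 0.748 and did not pass (limma adjusted p = 0.41). In controls, 6 of the 30 were higher and 9 lower at 6 than at 2 months, where 9.01% of all genes compared were higher and 4.65% lower.

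**Figure D5:**
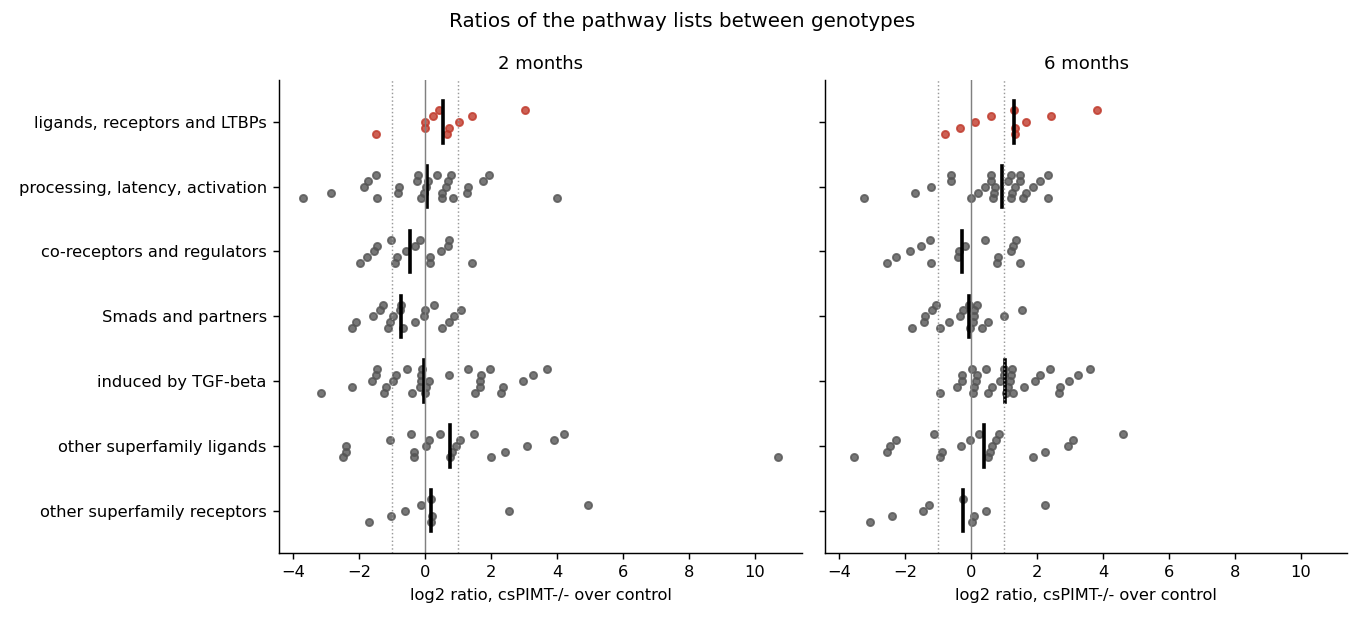
Log2 ratio of normalized counts between csPIMT-/- and control for the 10 genes (red) and every gene compared of the 6 pathway lists (grey) at 2 and 6 months, 1 point per gene, with a black bar at each median and dotted lines at 2-fold. The induced transcripts have a median ratio of 0.972 at 2 months and 2.05 at 6 months.

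The genes whose pattern over the 4 libraries was most like that of *Tgfb2* were found by Euclidean distance of log2 normalized counts plus 1, each gene centred on its own mean, among 12822 genes with at least 100 reads in 1 library. *Ston1*, an endocytic adaptor, was nearest at 0.202, with counts of 262, 253 and 257 in the 2-month control, 2-month csPIMT-/- and 6-month control and 1257 in the 6-month csPIMT-/- library. *2010300C02Rik* followed at 0.305 and *Adam8*, a membrane metalloprotease, at 0.325. These genes were picked for that likeness, so their high level in the 6-month csPIMT-/- library alone follows from the choice. *2010300C02Rik* held only 17 to 30 reads in the other libraries.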

How the data were processed

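The authors pooled RNA of 5 hearts per group, selected polyadenylated RNA and sequenced directional single-end reads of 50 bases. They filtered the reads, used STAR for alignment to mm10 and htseq-count for gene counts (HTSeq 0.6.1p1 per the submitters' processing notes) on a UCSC annotation, and normalized with DESeq2. The deposited signal is the read count of a gene divided by a size factor, also in the column headed as read counts; 1 read is worth 0.865 to 1.23, and 100% of values came out as whole reads (tolerance 1e-06 reads). Between 29823073 and 40705783 reads per library set the precision, and intervals cover counting error only.

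From these, ratios with 95% Clopper-Pearson intervals, 2-fold calls (at least 10 reads in 1 of 2 libraries) and GC-adjusted ratios (lowess of log2 ratio on GC, span 0.3, from the longest GENCODE M21 transcript, with 90.6% of genes or more matched) were computed with Python 3.11.15, pandas 2.3.3, SciPy 1.17.1 and statsmodels 0.14.6. Genotype and age were fitted with limma 3.58.1 in R 4.3.3 over all genes with a normalized count of at least 10 in 2 libraries. edgeR 4.0.16 (quasi-likelihood) and DESeq2 1.42.0 on the recovered reads, TMM scaling, other pseudocounts, filters and scalings, and the other control were alternatives. Groups came from the sample titles.

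Besides the 10 genes, *Tgs1* and *Myh6*, the text names the 3 lowest and 3 highest genes of each pathway list by 6-month ratio (at least 100 reads in 1 library, same side of 1 at both ages), or some of them, and the 3 genes most like *Tgfb2*. *Xist* and single cell type markers were named after their values were seen. The members and lists were chosen with earlier results of these data known. *Nrros*, *Ccn2* and *Adgre1* were listed under older symbols as well and found under those; *Tgfbr3l* was not found by symbol.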

Additional observations from a re-analysis of the deposited data

How the results depend on the processing

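No paired analysis was possible because each group had 1 library and the labels give no replicate numbers; leaving out a library leaves no residual degree of freedom and hence no test. Subtracting the GC trend changed the most: members called lower and higher went from 1 and 3 to 0 and 1 at 2 months and from 0 and 6 to 1 and 3 at 6 months, and all genes called lower from 3405 to 1570 at 2 months and from 3794 to 1800 at 6 months. The calls of all genes in the other direction stayed within 1.5 times. At least 100 reads took the genes called higher at 2 months from 2616 to 1724, and a whole interval past 2-fold took them to 1687, and those at 6 months from 2579 to 1686. In the limma fit 2595 genes fell and 1637 rose. Without the mean trend 0 fell and 0 rose (5965 with an unadjusted p under 0.05), and with the GC trend subtracted 0 fell and 0 rose (3490 unadjusted), so the members that rose went from 4 to 0 in each. edgeR called 2521 lower and 1637 higher, with 4 members. DESeq2 called 2996 and 2204, with 6 members higher and 1 lower, where limma had 0 lower. The log2 difference of *Tgfbr1* turned from -0.92 to 0.42 with the GC trend subtracted. Of 100 counts under alternatives 84 stayed within 1.5 times. Of 160 ratios of single members 101 stayed within the counting interval and 59 moved out of it. Settings that changed only the minimum of reads could not move a member's ratio or its 2-fold call. They are counted among those that stayed. Of 70 log2 differences 57 kept direction and side of the threshold, 8 lost the call and 4 gained it. The cause of these changes was not tested.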

Other observations

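Among the other ligands of the TGF-β superfamily, 8 of 21 genes compared stood higher and 4 lower in the csPIMT-/- library at 2 months (median ratio 1.70), and 5 of 20 were higher and 5 lower at 6 months (median 1.31). After GC adjustment 7 were higher and 2 lower at 2 months (median 1.40), and 6 higher and 5 lower at 6 months (median 0.935). *Gdf15*, a stress-induced ligand that acts through a receptor in the hindbrain, was at 459 in the 2-month control, 1837 in the 2-month csPIMT-/-, 326 in the 6-month control and 7959 in the 6-month csPIMT-/- library. It rose with ratios of 3.998 [3.62 to 4.42] and 24.4 [22.0 to 27.1], and 2.37 and 13.996 after GC adjustment. *Inhbb*, the beta subunit of activin B, rose with ratios of 2.80 [2.14 to 3.69] and 8.51 [6.91 to 10.6]. *Gdf6* had ratios of 1.08 and 7.69 (0.872 and 5.76 after GC adjustment) and did not pass the limma test.

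Among the 9 other receptors of the superfamily, 2 were higher and 2 lower at 2 months (median 1.12), and 1 was higher and 4 lower at 6 months (median 0.842). After GC adjustment 3 were higher and 0 lower at 2 months (median 1.28), and 2 higher and 2 lower at 6 months (median 1.04). *Bmpr1a*, a type I receptor for bone morphogenetic proteins, fell with ratios of 0.306 and 0.189, and the activin type II receptor *Acvr2a* with 0.494 and 0.363. GC adjustment moved *Acvr2a* to 1.28 and 1.04, above 1 at both ages, while *Bmpr1a* stayed below 1 at 0.701 and 0.491.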
